A study of Arabidopsis thaliana with 21 samples.

Results

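Root tips of the line HS:AXR3-1, in which heat switches on a stabilized form of the auxin repressor AXR3, were compared with root tips of Col-0, the wild type, after the same heat treatment. The comparison used the 6 libraries that carry these 2 genotype labels together with the heat label, 3 of the line and 3 of Col-0, out of 21 in the series. Plants were 5 days old and had grown at 23 °C by day and 18 °C by night. The heat treatment was 40 min at 37 °C followed by 80 min of recovery. Each library came from 50 root tips of 1 to 2 mm. The line is in the Col-0 background, a heat shock promoter drives its transgene, and both genotypes were heated. The groups thus shared the heat treatment, but the line libraries did not answer it alike, as given below. Whether the line goes back to 1 or several transformants is not given in the sources used here. The title of the series names root cell elongation and how auxin and gibberellin are perceived as its subject. Libraries of Col-0 without heat (mock ethanol for 20 min, or 5 µM estradiol for 2 h) and of a second AXR3-1 line, XVE:AXR3-1-RFP with 5 µM estradiol for 2 h, served as references. Col-0 with 10 nM of the auxin IAA, or with 10 µM of the auxin antagonist PEO-IAA, for 20 min completed the series, 3 libraries each. All 21 libraries, in 7 groups, entered the fits.

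AXR3, also called IAA17, is one of the Aux/IAA proteins, which bind ARF transcription factors and repress auxin-responsive genes. Auxin joins the degron of an Aux/IAA protein to a TIR1/AFB receptor, and the repressor is then degraded. A change in the degron, as in AXR3-1, stabilizes the protein and leaves auxin-responsive genes repressed. In roots, auxin responses set cell elongation, gravitropism and root hair growth. Heat shock promoters are opened by heat shock factors, which bind heat shock elements, alternating blocks of GAA and TTC. The same factors switch on the cell's own chaperone genes, so these genes show in each library how strongly that plant material answered the heat.

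The sequences below, from the RefSeq copy of assembly TAIR10.1, show the degron of the native AXR3 gene and the kind of promoter that answers heat. AXR3 (AT1G04250) lies on chromosome 1 from base 1136078 to base 1138663, plus strand. The stretch shown is 45 coding bases that start at base 1136619 in exon 1 and end at base 1136976 in exon 2, and capitals mark the codons of the degron core.
AXR3 degron: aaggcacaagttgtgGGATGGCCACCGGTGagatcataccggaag
Reads of the transgene and of the native gene fall on the same transcript, so the AXR3 level here is the sum of both. The windows of HSP17.4 (AT3G46230, a cytosolic small heat shock protein) at chr3:16984818-16985117, minus strand, and of HSP70 (AT3G12580, a heat-induced chaperone) at chr3:3993837-3994136, minus strand, run from 250 bases before the gene start to 50 after it. Capitals mark runs of 3 heat shock blocks, TTCNNGAANNTTC or its reverse complement.
HSP17.4: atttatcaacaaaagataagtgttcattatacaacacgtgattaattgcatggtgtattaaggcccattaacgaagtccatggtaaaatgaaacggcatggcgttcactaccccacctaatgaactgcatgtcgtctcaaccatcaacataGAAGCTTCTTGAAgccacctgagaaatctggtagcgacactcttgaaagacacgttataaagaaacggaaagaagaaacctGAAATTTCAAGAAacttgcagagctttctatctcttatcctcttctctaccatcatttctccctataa
HSP70: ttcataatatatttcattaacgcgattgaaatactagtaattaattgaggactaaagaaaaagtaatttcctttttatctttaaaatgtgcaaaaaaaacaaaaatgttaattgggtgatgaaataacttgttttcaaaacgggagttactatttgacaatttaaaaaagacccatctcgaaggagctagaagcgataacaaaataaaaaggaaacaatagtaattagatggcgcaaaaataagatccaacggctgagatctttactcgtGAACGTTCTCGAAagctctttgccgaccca
Such a run occurred in the windows of 2 of 14 small heat shock protein genes (14.3%), 2 of 14 genes of large chaperones and cofactors (14.3%) and 111 of 19743 tested genes (0.562%). It occurred in the window of none of the 20 genes other than AXR3 that were called below, and no match says only that these letters are not in that window.

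The 3 line libraries differed widely in how much AXR3 RNA they held. AXR3 stood at 181, 298 and 861 CPM (counts scaled to the size of each library) in line replicates 1, 2 and 3, and at 93.5, 149 and 143 CPM in the 3 heated Col-0 libraries. All line libraries lay above all Col-0 libraries, by 1.41, 2.32 and 6.70 times the Col-0 mean. Over all libraries the log2 change was 1.80 (SE 0.38) and did not pass the test across genes (edgeR quasi-likelihood test, adjusted p = 0.199). Without line replicate 1 it was 2.17 (SE 0.30, edgeR adjusted p = 0.0132). Without line replicate 3, which had the most AXR3, it was 0.90 (edgeR adjusted p = 0.151). Line replicate 1 was chosen for leaving out because its heat response was weak, a measured outcome known beforehand. It also held the least AXR3 of the line. The fit without it is therefore no independent test of AXR3, and it is given only beside the fit with all libraries. With line replicate 1 out, the call was lost when Col-0 replicate 1, 2 or 3 was left out too (edgeR adjusted p = 0.0526, 0.0582 and 0.0687) or line replicate 3 was (edgeR adjusted p = 0.221). Unheated Col-0 held 124, 137 and 155 CPM with mock and 175, 146 and 146 CPM with estradiol. The XVE line held 734, 939 and 1180 CPM, so line replicate 3 was the one heat-induced library within the range of that line.

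The line libraries also differed in their own heat response, and in the same order. Summed over 14 small heat shock proteins, chaperones that hold unfolded proteins in solution, the line held 599, 8490 and 21300 CPM against 10200, 11500 and 13900 CPM in heated Col-0. Line replicate 1 thus had 0.0505 times the heated Col-0 mean, line replicate 2 had 0.716 times and line replicate 3 had 1.79 times. Col-0 with mock or estradiol held 28.8 to 110 CPM, so for this sum line replicate 1 was still above all of those libraries. HSP18.2 (AT5G59720) stood at 18.0, 1960 and 4820 CPM in the line and at 3160, 2460 and 3070 CPM in heated Col-0, with at most 1.43 CPM in Col-0 with mock or estradiol. HSP22.0, which belongs to the endoplasmic reticulum, showed the same at 11.0, 1050 and 2780 CPM against 1270, 1370 and 1660 CPM.

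**Figure D1:**
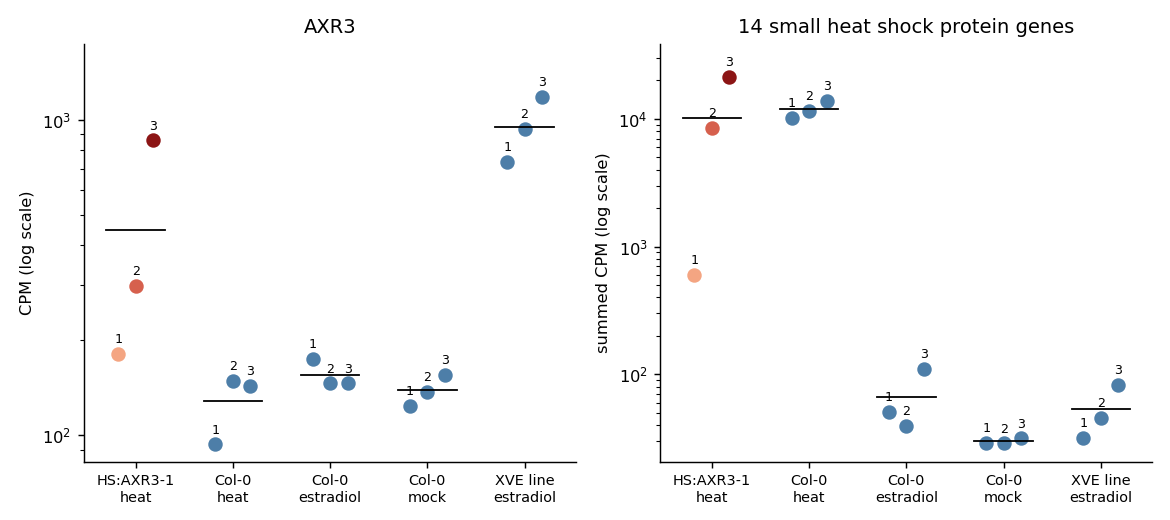
AXR3 (left, CPM) and the summed level of 14 small heat shock protein genes (right, summed CPM), both on log axes, with 1 point per library labelled by its replicate number and a bar at each group's mean. Line replicate 1 is lowest and line replicate 3 highest of the line libraries in both panels, from 181 to 861 CPM for AXR3 and from 599 to 21300 CPM for the chaperones.

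The large chaperones kept this order. HSP101, the disaggregase needed for acquired heat tolerance, stood at 4.96, 18.6 and 186 CPM in the line and at 34.5, 23.4 and 81.6 CPM in heated Col-0. HSP70, whose window is printed above, stood at 16.3, 493 and 2320 CPM against 578, 732 and 1260 CPM. HSP90.1, the heat-induced HSP90, stood at 9.40, 86.8 and 921 CPM against 145, 137 and 374 CPM. In each of these genes line replicate 1 was below, and line replicate 3 above, every heated Col-0 library. HSC70-1, a constitutive HSP70, did not share this, at 2720, 2310 and 3460 CPM against 2760, 2560 and 2690 CPM.

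By counts, 13 of 14 small heat shock proteins and 13 of 14 large chaperones had the line libraries in AXR3's order with at least a 2-fold span. Over all 19809 genes tested, 1047 (5.29%) did. AXR3's order was therefore also the order of the heat response, and over 3 libraries the amount of AXR3-1 and the strength of the heat response cannot be told apart. In line replicate 1, 14 of the 14 small heat shock proteins were below all heated Col-0 libraries. Of these, 9 were above all 6 libraries of Col-0 with mock or estradiol. Of the 14 large chaperones, 12 were below all heated Col-0 libraries in line replicate 1, and only 1 was above those 6. The mean log2 CPM of the large chaperones was 4.84 in line replicate 1, against 4.96 to 5.88 in those 6 unheated libraries. In line replicate 3, 13 of 14 small heat shock proteins and 14 of 14 large chaperones were above all heated Col-0 libraries. None of the 28 genes was called between the line and Col-0, with all libraries or without line replicate 1. Among 17 heat response regulators, heat shock factors and their partners, none was called. AXR3's order held for 2 of them and the reverse for 2, against 5.39% of all genes tested for the reverse.

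**Figure D2:**
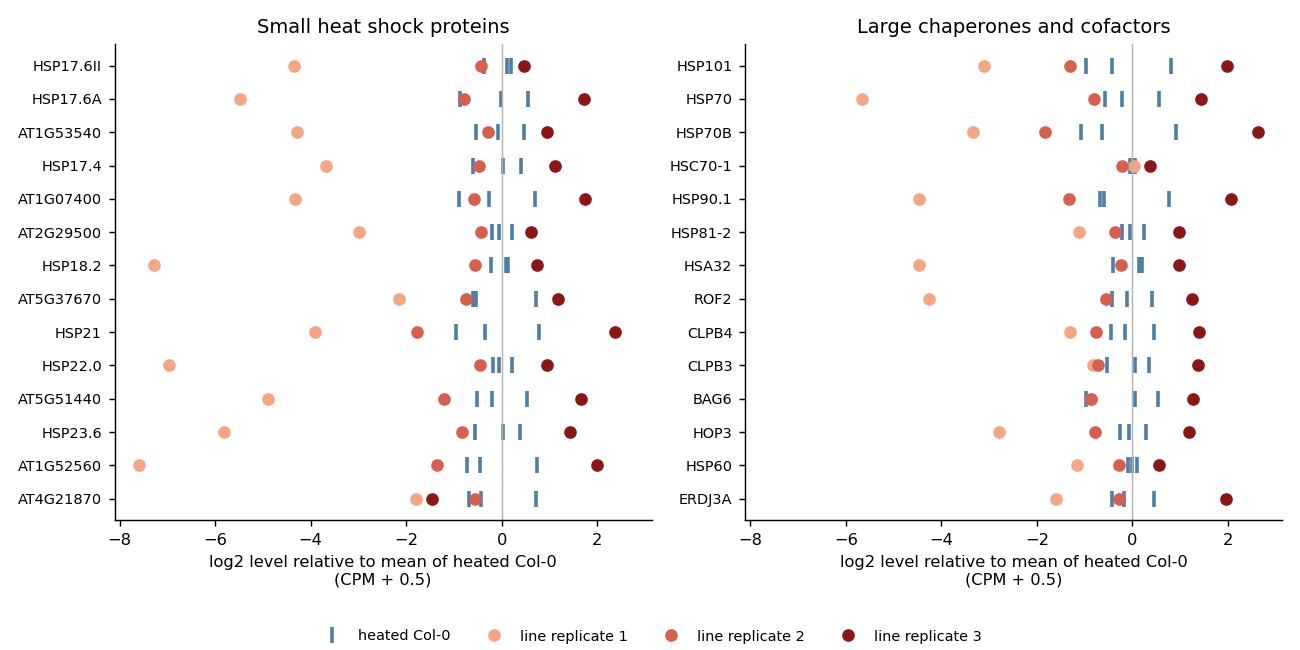
Level of each small heat shock protein (left) and each large chaperone or cofactor (right) relative to the mean of heated Col-0, on a log2 scale of CPM + 0.5, with 1 dot per line library and 1 tick per heated Col-0 library. For 14 of 14 genes on the left, line replicate 1 lies below the 3 Col-0 ticks, and for 14 of 14 genes on the right line replicate 3 lies above them.

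With all 6 libraries, 5 genes were higher in the line than in heated Col-0 (0.0252% of 19809 tested) and 0 were lower (0%), at an adjusted p under 0.05 in edgeR. At an unadjusted p under 0.05 the counts were 518 and 320, and DESeq2 called 26 and 14. In 659 genes (3.33%) the 3 line libraries were all above the 3 Col-0 libraries, and in 574 (2.9%) all below. Without line replicate 1, 9 genes were higher (0.045% of 19988) and 11 lower (0.055%). A total of 20 genes besides AXR3 was called in one or both fits. Of these, 5 were level over the 3 line libraries (within 1.5-fold, and outside the range of Col-0). Another 7 followed AXR3 (in its order when higher, in reverse order when lower, spanning at least 2-fold), and 8 did neither. Of those 8, NADK1 and AT4G24050 rose in AXR3's order and TAA1 and AT2G39180 fell in its reverse. They missed that pattern only by their spans of 1.59- to 1.94-fold. Over all genes tested, 5.06% were level and clear of Col-0, 5.29% had AXR3's order and 5.39% the reverse. The fits borrow their estimate of the spread from all 7 groups of the series, and a fit of the heat experiment alone called 0 genes in either direction, with or without line replicate 1. Single libraries also decided the counts. From all libraries, leaving out Col-0 replicate 3 left no call, Col-0 replicate 1 or 2 left MRD1 alone, line replicate 2 left 3 higher and 0 lower, and line replicate 3 gave 13 and 2. With line replicate 1 already out, leaving out line replicate 3 left 0 and 0, and leaving out line replicate 2 gave 60 and 96. Leaving out Col-0 replicate 1, 2 or 3 there left 2 and 4, 1 and 1, or 0 and 1.

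MRD1 (AT1G53480, MTO 1 RESPONDING DOWN 1, a gene of unknown function) differed most among the level genes. It stood at 71.4, 59.7 and 63.5 CPM in the line and at 1.27, 0 and 0.616 CPM in heated Col-0. None of the 18 libraries outside the line held more than 1.27 CPM, and the XVE line held 0.0593, 0.797 and 0.460 CPM. The log2 change was 6.69 (SE 0.81, edgeR adjusted p = 0.00382) with all libraries and 6.62 (SE 0.90, edgeR adjusted p = 0.0125) without line replicate 1. In counts, 4112 estimated reads in the line stood against 38 in heated Col-0, a ratio of 107 with a 95% exact interval of 77.5 to 151 that covers counting error only. Its level in line replicate 1, the library with little heat response and little AXR3, was the highest of the 3. Its level in the line without heat was not analysed here. Of the 5 neighbouring genes on each side none was called, with log2 changes from -0.45 to 0.50. One of them, HEI10, overlaps MRD1 on the opposite strand, and it stood at 12.0, 12.1 and 14.1 CPM in the line and 10.2, 9.08 and 7.72 CPM in Col-0.

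AT5G50630, a transporter of the major facilitator superfamily, was the other level gene with no matching change in the XVE line. It stood at 39.6, 33.1 and 28.5 CPM in the line against 19.9, 17.4 and 18.9 CPM in heated Col-0 (log2 change 0.85, SE 0.12, edgeR adjusted p = 0.0137), and all line libraries lay above all Col-0 libraries. In the XVE line its log2 change was 0.05 (SE 0.12). All 30-base words of its transcript (100%) also occur in AT5G50520, so reads of these copies cannot be assigned to 1 of them, and the value belongs to the sequence and not to the locus. Its neighbour AT5G50650 stood at 71.9, 55.1 and 59.8 CPM against 40.6, 37.1 and 38.7 CPM. These groups did not overlap either, but that difference did not pass (log2 change 0.68, edgeR adjusted p = 0.204). Of the 10 neighbours of AT5G50630, 9 were tested and none was called, with log2 changes from -1.6 to 1.08. The highest was that of AT5G50660, whose groups overlapped. Words shared with other loci were not checked for these neighbours.

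The other 3 level genes changed in both lines. AT5G18460, which encodes a protein of the carboxyl-terminal peptidase family, stood at 30.7, 35.3 and 33.9 CPM against 20.1, 20.5 and 19.6 CPM. Its log2 change was 0.73 (SE 0.12, edgeR adjusted p = 0.0382), and 1.05 (SE 0.12, edgeR adjusted p = 1.31e-04) in the XVE line. AT2G40095, related to alpha/beta hydrolases, stood at 8.57, 8.58 and 8.93 CPM against 4.20, 4.00 and 5.32 CPM, a log2 change of 0.95 (SE 0.15, edgeR adjusted p = 0.0375). TBL21, of the trichome birefringence-like family, was the one level gene that fell, at 17.0, 14.3 and 15.2 CPM against 24.2, 24.4 and 23.5 CPM. Its log2 change without line replicate 1 was -0.71 (SE 0.13, edgeR adjusted p = 0.0369). In the XVE line AT2G40095 was higher (log2 change 0.76, edgeR adjusted p = 0.00632) and TBL21 lower (log2 change -1.11, edgeR adjusted p = 8.56e-05). In these 3 genes all line libraries lay on the same side of the Col-0 range, as the definition of a level gene requires.

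**Figure D3:**
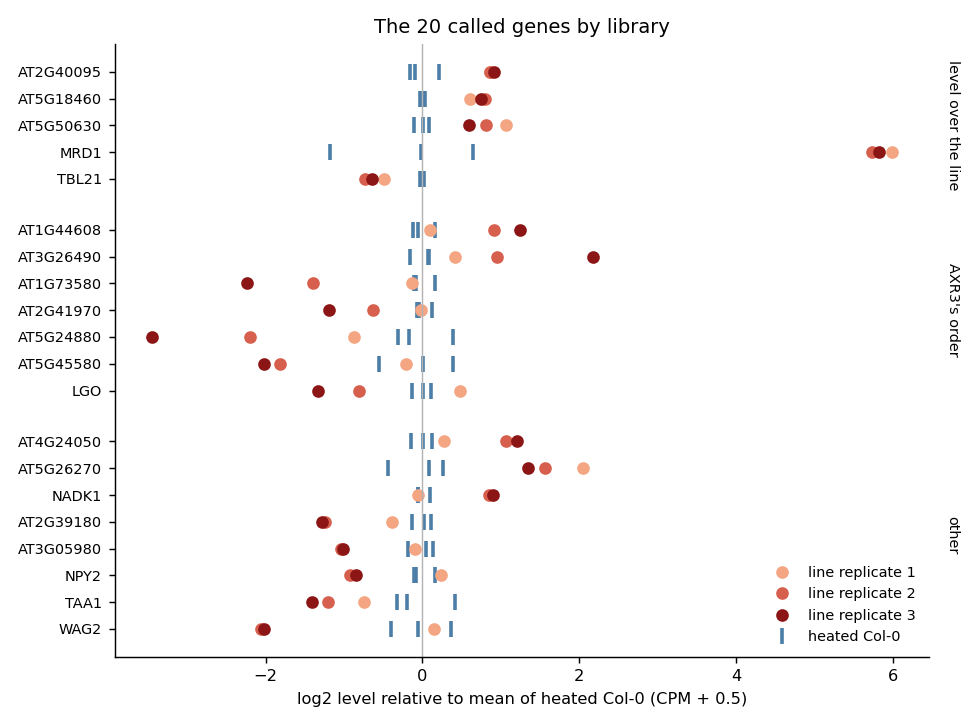
The 20 genes called besides AXR3, as the level in each library relative to the mean of heated Col-0 (log2 of CPM + 0.5), with 1 dot per line library and 1 tick per heated Col-0 library, grouped by their pattern over the line. In the 5 level genes the 3 dots lie together and clear of the ticks, as their definition requires. In the 7 genes that follow AXR3 (marked AXR3's order, 2 in that order and 5 in its reverse), line replicate 3 lies farthest from Col-0. That too comes largely from their definition.

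Of the 7 genes that followed AXR3, 5 fell and 2 rose in the fit without line replicate 1. AT5G24880, annotated as a chromo domain cec-like protein, had the widest span, at 8.34, 3.02 and 0.977 CPM in the line against 12.5, 13.9 and 20.7 CPM in heated Col-0. Without line replicate 1 its log2 change was -2.98 (SE 0.50, edgeR adjusted p = 0.0262). LGO (AT3G10525), an inhibitor of cyclin-dependent kinases that promotes endoreduplication, stood at 51.2, 20.6 and 14.2 CPM against 33.4, 39.6 and 36.7 CPM. Line replicate 1 was above and the other two were below every Col-0 library, and without it the log2 change was -1.08 (SE 0.19, edgeR adjusted p = 0.0369). AT1G73580, a calcium-dependent lipid-binding family protein, stood at 17.4, 6.94 and 3.67 CPM against 17.8, 18.1 and 21.5 CPM (log2 change -1.86, SE 0.29, edgeR adjusted p = 0.0205).

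The homeodomain-like AT5G45580 stood at 11.2, 3.37 and 2.84 CPM against 8.73, 13.2 and 17.3 CPM, and line replicate 1 lay within the Col-0 range. The protein kinase AT2G41970 did the same, at 36.7, 23.8 and 16.0 CPM against 35.8, 35.2 and 40.2 CPM. The 2 that rose were AT3G26490, of the NPH3 family known from phototropic signalling, and AT1G44608, an uncharacterized protein. AT3G26490 stood at 1.20, 1.98 and 5.25 CPM against 0.850, 0.645 and 0.839 CPM (log2 change 2.21 without line replicate 1, SE 0.36, edgeR adjusted p = 0.0233). In the XVE line it reached 24.8, 23.7 and 13.1 CPM, above every library of the heat-induced line. AT1G44608 stood at 23.9, 42.5 and 53.7 CPM against 21.5, 25.0 and 20.5 CPM.

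Of the 8 called genes with neither pattern, 5 fell and 3 were higher. WAG2, an AGC kinase that phosphorylates PIN auxin exporters, stood at 10.5, 1.88 and 1.95 CPM in the line against 9.06, 7.01 and 12.3 CPM in heated Col-0. Line replicate 1 was within the Col-0 range, and without it the log2 change was -2.29 (SE 0.28, edgeR adjusted p = 0.00799). TAA1, the aminotransferase of the first step from tryptophan to auxin, stood at 21.1, 15.2 and 13.1 CPM against 28.5, 31.0 and 47.6 CPM, with no overlap between the groups. Its log2 change without line replicate 1 was -1.33 (SE 0.22, edgeR adjusted p = 0.0223), and with all libraries -1.11 (edgeR adjusted p = 0.122). NPY2, an NPH3-family protein of auxin-controlled organ formation, stood at 40.1, 17.7 and 18.8 CPM against 32.3, 38.3 and 31.7 CPM, so that line replicate 1 was on the other side of Col-0.

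The other five comprised a kinase, metabolic enzymes and genes with no known role. AT2G39180, a kinase related to CRINKLY4, and the uncharacterized AT3G05980 were lower without line replicate 1 by log2 changes of -1.31 and -1.11. NADK1, an NAD kinase that makes NADP, and AT4G24050, an NAD(P)-binding protein, were higher by 0.88 and 1.16. NADK1 stood at 82.1, 154 and 159 CPM against 81.9, 91.2 and 82.0 CPM, so line replicate 1 matched Col-0. AT5G26270, of unknown function, was the one gene called with all libraries (log2 change 1.92, SE 0.30, edgeR adjusted p = 0.0375) and not without line replicate 1 (1.68, SE 0.32, edgeR adjusted p = 0.0593). It stood at 9.54, 6.64 and 5.67 CPM against 2.41, 1.29 and 2.07 CPM. Over the 20 genes, line replicate 1 lay beyond Col-0 on the side of the call in 12, within the Col-0 range in 6 and beyond it on the other side in 2. The 12 include the 5 level genes, for which this was part of the definition, and AT5G26270, called only with line replicate 1 in the fit. The matching share over all genes tested was not computed, so the count of 12 has no background to be read against.

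The XVE line has its own estradiol-treated Col-0, so no control library is shared with the heat experiment. Of the 8 genes besides AXR3 that were higher without line replicate 1, 6 (75%) were also higher in the XVE line, where 1.46% of genes tested were higher; they made 2.08% of that line's higher genes. Of the 11 lower genes, 11 (100%) were also lower there, against 1.34% of genes tested, and made 4.14% of that line's lower genes. By pattern, 7 of 7 genes that followed AXR3, 8 of 8 with neither pattern and 3 of 5 level genes were called in the same direction in both lines. The exceptions were MRD1 and AT5G50630. The change without line replicate 1 was smaller than in the XVE line for 16 of the 18 genes called in both. Testing one line's effect against the other's, with all libraries, called 5 genes (0.0252%), none of them among the 20. For MRD1 that difference was 6.69 on the log2 scale (SE 1.21, edgeR adjusted p = 0.0599), and for AT5G50630 it was 0.79 (SE 0.17, edgeR adjusted p = 0.142). Neither passed the test across genes, so no difference in effect was called for MRD1 or AT5G50630. The levels of MRD1 were still far apart, at 71.4, 59.7 and 63.5 CPM in HS:AXR3-1 and 0.0593, 0.797 and 0.460 CPM in the XVE line. Besides MRD1, the called genes NPY2, LGO, NADK1, TBL21 and AT5G26270 overlap a gene on the opposite strand, and with no strand option stated the reads of such pairs cannot be told apart.

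**Figure D4:**
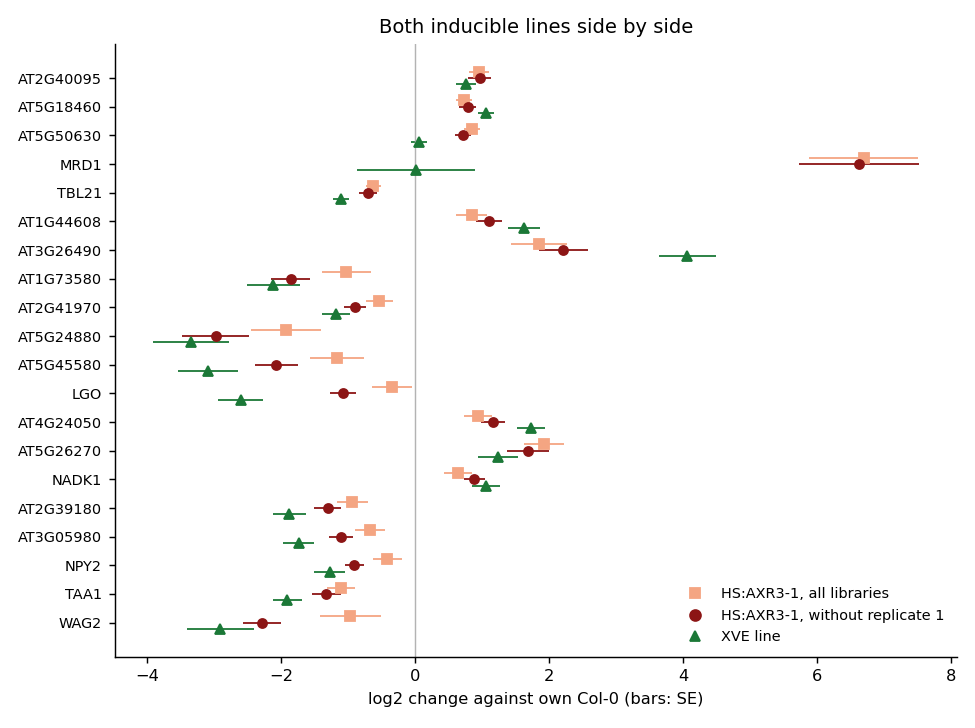
Log2 change with its standard error of the 20 called genes against the Col-0 of each experiment, for HS:AXR3-1 with all libraries (squares) and without replicate 1 (circles), and for the XVE line (triangles). For 18 genes the triangle lies on the same side as the circle and was called there, while for MRD1 (0.01) and AT5G50630 (0.05) it lies near 0.

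Gene lists of auxin and growth showed few calls. None of the 26 tested Aux/IAA genes besides AXR3, direct targets of auxin, was called in either fit, while 12 were lower in the XVE line, where 1.34% of all genes tested were. Tested gene by gene, the difference between the lines passed for none of the list. The median log2 change of the list was -0.21 with all libraries and -0.35 without line replicate 1, against 0.016 and 0.005 over all genes tested. IAA16 stood at 260, 126 and 78.5 CPM in the line against 191, 241 and 247 CPM in heated Col-0, and line replicate 1 lay above Col-0. IAA1 stood at 8.71, 5.45 and 2.37 CPM against 7.88, 9.98 and 11.7 CPM. IAA7 stood at 114, 102 and 106 CPM against 124, 135 and 139 CPM, and was 1 of 5 members with all line libraries below all Col-0 libraries (2.9% of all genes tested were). Summed, the Aux/IAA genes held 1150, 938 and 717 CPM in the line and 1010, 1150 and 1180 CPM in heated Col-0.

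Auxin-inactivating enzymes had a median log2 change of -0.66 over 8 tested members, with 0 called. GH3.2, which conjugates auxin to amino acids, stood at 4.77, 0.446 and 0.186 CPM against 5.57, 3.66 and 6.04 CPM. Of 9 auxin biosynthesis genes 1 was called, TAA1, lower without line replicate 1 as were 0.055% of all genes tested. In that fit 7 of the 9 had a log2 change above 0, against 10244 of 19988 genes tested. YUC flavin monooxygenases catalyse the step after TAA1. YUC8 stood at 13.8, 30.5 and 37.5 CPM against 16.9, 17.2 and 15.4 CPM, and YUC9 at 5.79, 16.4 and 31.8 CPM against 7.13, 6.41 and 15.7 CPM. Neither passed in this line, and 4 of the 9 had AXR3's order, against 5.29% of all genes tested. Of 15 auxin transport genes only WAG2 was called, lower without line replicate 1, against 0.055% of all genes tested. None of 9 SAUR genes, 20 auxin-regulated transcription factors or 13 receptors and ARFs was called in either fit.

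None of the 21 root hair genes passed in either fit. Over the 21 the median log2 change was -0.54, and -0.94 without line replicate 1, and 10 of the 21 had the reverse of AXR3's order, against 5.39% of all genes tested. Others did not, among them RHD2, an NADPH oxidase of growing hairs, at 72.0, 98.4 and 102 CPM in the line against 97.9, 93.1 and 104 CPM. Summed, they held 1120, 846 and 644 CPM in the line and 1170, 1100 and 1420 CPM in heated Col-0. RSL4, the transcription factor that sets root hair length, stood at 16.2, 6.79 and 4.88 CPM against 16.0, 16.5 and 25.7 CPM (log2 change without line replicate 1 -1.73, edgeR adjusted p = 0.0997). EXPA7, a root hair expansin, stood at 59.8, 40.2 and 33.2 CPM against 79.9, 82.9 and 128 CPM, and RHD6, which acts before RSL4, at 31.0, 22.0 and 19.8 CPM against 41.4, 38.3 and 40.8 CPM. In both genes the groups did not overlap. All line libraries lay below all Col-0 libraries in 4 of the 21 genes, against 2.9% of all genes tested. In such bulk samples fewer root hair cells and less RNA per cell cannot be told apart. In the XVE line 6 of the 21 were lower, against 1.34% of all genes tested, and the difference between the lines passed for none of the 21.

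Cell wall and hormone lists gave 0 calls in either fit: XTH enzymes (14 tested), expansins (12), proton pumps (5), gibberellin metabolism (9), gibberellin perception and response (14), ethylene synthesis (8) and touch, wounding and jasmonate genes (13). XTH12 stood at 11.3, 4.16 and 1.02 CPM against 13.7, 15.0 and 29.7 CPM, and XTH13 at 4.77, 1.09 and 0.558 CPM against 4.25, 7.01 and 23.5 CPM. Of the 14 XTH genes 6 had the reverse of AXR3's order, against 5.39% of all genes tested. None had the order itself, against 5.29%.

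Markers of other cell types gave 0 calls as well, among them 14 cell division, 9 endodermis, 7 xylem, 7 phloem, 4 root cap, 9 epidermal patterning and 7 green tissue genes. Endodermis markers stood at a mean log2 CPM of 5.93 to 6.37 and root hair markers at 4.46 to 5.69 over the 6 libraries. Green tissue markers stood at 1.88 to 2.73. Root cap markers, at 3.12 to 3.88, were closer to these, and phloem markers, at 2.40 to 3.23, overlapped them. Means over different genes do not establish the tissue. Cell division genes were lowest in line replicate 3, at a summed 217 CPM beside 366 and 401 CPM in the other line libraries and 285, 389 and 263 CPM in heated Col-0. Line replicate 3 is also the library with the most AXR3 and the strongest heat response, and the part of its cell makeup in the results that rest on it was not tested.

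**Figure D5:**
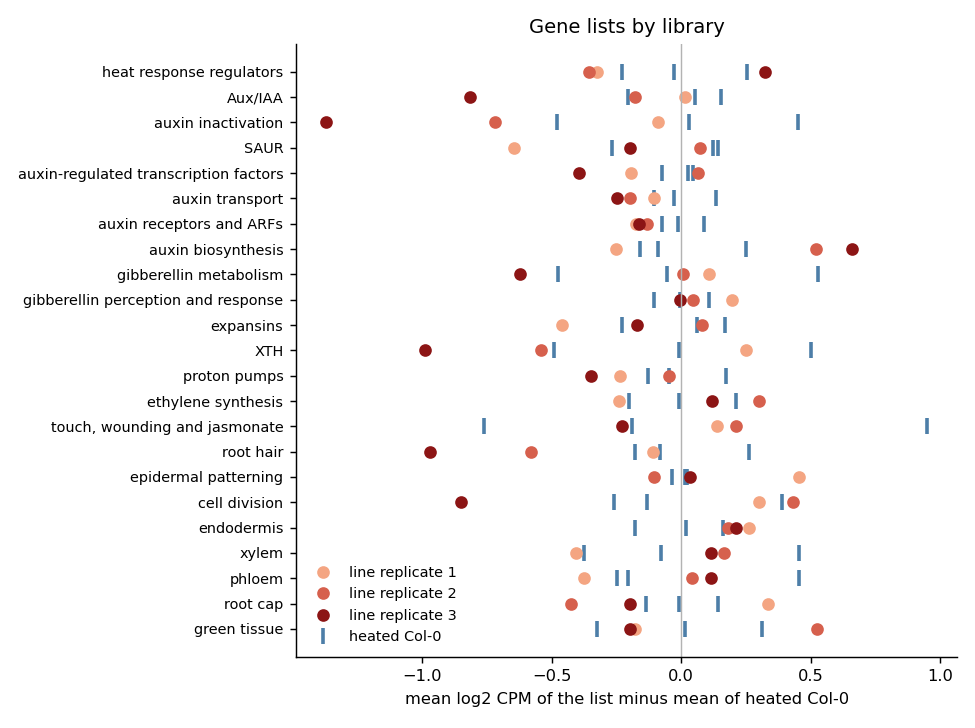
Mean log2 CPM (prior count 2) of 23 gene lists in each line library (dots) and each heated Col-0 library (ticks), minus the mean of heated Col-0. Line replicate 3 is the lowest of the 6 libraries for 9 of the 23 lists (Aux/IAA, auxin inactivation, auxin-regulated transcription factors, auxin transport, gibberellin metabolism, XTH, proton pumps, root hair and cell division), and line replicate 1 for 7.

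Depth was similar over the 6 libraries, from 17.68 to 23.88 M estimated reads, and 20747 to 21433 loci had reads. The 3 libraries of each group are called biological replicates in the labels. No pair looked like 1 library deposited again, with a mean chi-square per gene of 61.5 to 129 within the line and 27.9 to 32.8 within heated Col-0.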

How the data were processed

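The authors deposited expected counts (estimated counts) per transcript, made with Salmon 1.3.0 on TAIR10 per the submitters' processing notes. The strand option is not given in the sources used here. The deposited TPM values served only to check how the files were read. Estimated counts were summed over the transcripts of a locus (27586 loci) and rounded. Symbols came from the RefSeq table of TAIR10.1, in which 99.6% of matched transcripts had the length in the files. edgeR 4.0.16 in R 4.3.3 fitted all 21 libraries at once, with 1 term per group, TMM factors and filterByExpr; tests were quasi-likelihood tests, p-values were adjusted by Benjamini-Hochberg over all genes tested, and a gene was called under 0.05. CPM used TMM-scaled library sizes. Called genes were all named, with patterns set on log2(CPM + 0.5). DESeq2 1.42.0 and limma 3.58.1 served as alternatives. The fits were tested on simulated data. DESeq2 exceeded the share of false calls allowed there, and that limit was then applied to the other fits only. The comparison, the leaving out of line replicate 1, 25 gene lists (318 members) and patterns were chosen with earlier results of these data known.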

Additional observations from a re-analysis of the deposited data

Results flagged for a closer look

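The effects of both AXR3-1 lines, each against its own Col-0, differed for 5 genes (edgeR test of the difference with all libraries). For 3 the log2 effect in HS:AXR3-1 minus that in the XVE line was above 0: ACS11, an ethylene synthesis enzyme (3.74, SE 0.54, edgeR adjusted p = 0.0329), AT2G22460, a MIZU-KUSSEI-like protein (3.59, SE 0.56, edgeR adjusted p = 0.0389), and UNE11, of the pectin methylesterase inhibitor superfamily (3.06, SE 0.50, edgeR adjusted p = 0.0389). For AT1G19380 and AT2G47550 it was -2.90 (SE 0.43, edgeR adjusted p = 0.0329) and -1.80 (SE 0.29, edgeR adjusted p = 0.0389). Each of these 5 genes was called in the XVE line and not in HS:AXR3-1. UNE11 stood at 52.6, 26.0 and 30.9 CPM in HS:AXR3-1 and 51.0, 75.8 and 70.1 CPM in heated Col-0, against 2.90, 2.19 and 8.50 CPM in the XVE line and 72.9, 65.1 and 67.8 CPM in its Col-0. ACS11 was near 1 CPM in heated Col-0, at 0.944, 1.03 and 1.01 CPM, against 2.33, 3.45 and 2.1 CPM in estradiol-treated Col-0. Without line replicate 1 the test of the difference called 0 genes, with adjusted p from 0.0599 to 0.0879 for these 5, and 231 and 261 genes at an unadjusted p under 0.05.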

How the results depend on the processing

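Counts of called genes depended on the fit. With all libraries (5 higher, 0 lower), DESeq2 gave 26 and 14, voom with sample quality weights 9 and 9, the heat experiment alone 0 and 0, and no low-count filter 2 and 0; leaving out 1 library gave 0 to 13 higher and 0 to 11 lower. Without Col-0 replicate 3 no gene was called, and without Col-0 replicate 1 or 2 only MRD1 was. Without line replicate 1 (9 higher, 11 lower), DESeq2 gave 46 and 99 and the heat experiment alone 0 and 0. Leaving out a further library gave 0 to 60 higher and 0 to 96 lower, with 0 and 0 when line replicate 3 was left out and 60 and 96 when line replicate 2 was. In simulated counts DESeq2 called more unchanged genes than edgeR. Those counts were drawn with edgeR's own estimates of the spread, alike for all libraries, so they cannot decide between the fits here. The larger counts of DESeq2 were not shown to be firmer.

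The AXR3 change passed with DESeq2 (1.80, adjusted p = 0.00103). Leaving out 1 library gave 0.90 to 2.17, and a further one after line replicate 1 gave 1.21 to 2.74. After line replicate 1 was left out it missed the threshold in the heat experiment alone (2.16, adjusted p = 0.649) and without any one Col-0 library or line replicate 3 (adjusted p = 0.0526 to 0.221). The 5 differences between the lines became 57 with DESeq2 and 0 to 36 with 1 library left out. A level limit of 2-fold put 9 genes in place of 5 among the level ones, adding TAA1, AT2G39180, AT4G24050 and AT5G26270. Even so, AT4G24050 lay in AXR3's order and TAA1 and AT2G39180 in its reverse. None of the 20 called genes changed sign in the alternatives run on the fit that called it; among genes not called, HSP18.2 went from -0.35 to 0.23 and HSP22.0 from -0.16 to 0.42 without line replicate 1; the cause of the changes in counts was not tested.

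Replicate numbers were not shown to pair the line with Col-0, and a pairing was not excluded. Deviations of same-numbered libraries correlated at 0.09, 0.45 and 0.28 over genes. Line replicate 1 correlated best with Col-0 replicate 2 (0.23). Line replicates 2 and 3 correlated best with the Col-0 library of their own number. With the other Col-0 libraries, line replicate 2 correlated at -0.39 and -0.02, and line replicate 3 at 0.18 and -0.52. The main fits had no term for the replicate number. With the replicate block the counts were 63 higher and 23 lower with all libraries and 171 and 199 without line replicate 1, AXR3 with all libraries was 1.5 (adjusted p = 0.032), 51 genes differed between the lines, and 9 root hair and 6 Aux/IAA genes were lower without line replicate 1.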
